A study of Homo sapiens with 11 samples.

Results

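S100 calcium binding proteins were followed here in PC3 and DU145 prostate cancer cells with and without overexpression (OE) of ST6GAL1, the sialyltransferase that adds α2-6 linked sialic acid to N-glycans. The 10 genes described (S100A2, S100A3, S100A4, S100A6, S100A10, S100A11, S100A13, S100A14, S100A16 and S100P) were found as the rows of both count tables whose Entrez identifiers map to these symbols, out of 28395 genes. RNA was sequenced from 11 libraries. PC3 is a human line established from a bone metastasis of prostate cancer, and DU145 a human line from a brain metastasis. All cells had been transduced with lentivirus and kept as stable populations: controls carried the Lenti-ORF control virus (3 libraries in PC3 and 3 in DU145) and the others a virus for ST6GAL1 overexpression (3 in PC3, and 2 in DU145, labelled replicates 2 and 3). Untransduced cells were not analysed here, and the labels do not say whether replicates came from separate transductions, so the p-values measure only the spread between these libraries.

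S100 proteins are small calcium binding proteins with paired EF-hand motifs, and most act as dimers. Calcium opens a surface through which they bind other proteins, among them annexins, cytoskeletal proteins and p53, and several are also released from cells and bind receptors such as RAGE, the product of AGER. Most of their genes form a cluster on chromosome 1, and many are expressed in epithelia.

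Total counts per library ran from 13194485 to 18201359, and a floor of 3 counts corresponded to between 0.165 and 0.227 CPM over the libraries, where CPM is the count scaled to a common library size, with TMM factors over all 11 libraries. ST6GAL1 stood at 2.98, 2.08 and 3.06 CPM in the PC3 control libraries and 33.3, 31.7 and 32.5 CPM with OE, and at 14.3, 13.2 and 11.3 CPM in the DU145 control libraries and 344.7 and 298.2 CPM with OE, so every library matched its label. The epithelial markers KRT8, KRT18, KRT19, EPCAM and CDH1 were detected in every group, with a summed level of 862 to 895 CPM in PC3 control and 890 to 899 CPM in PC3 OE libraries. In DU145 the sum was 1303 to 1351 CPM in control and 1038 to 1174 CPM in OE libraries. KRT8, KRT18, KRT19 and EPCAM were each lower with OE in DU145 (log2 fold changes -0.27, -0.25, -0.39 and -0.35, adjusted p = 0.0323, 0.0260, 0.0336 and 0.0219, edgeR), and CDH1 was higher with OE in DU145 (0.26, adjusted p = 0.0258, edgeR) and in PC3 (1.37, 2.59-fold, adjusted p = 7.85e-18, edgeR). With OE in PC3, KRT8 was lower (-0.21, adjusted p = 3.93e-08, edgeR) and KRT19 higher (0.15, adjusted p = 2.40e-05, edgeR). KRT18 and EPCAM did not pass there (0.02 and 0.12, adjusted p = 0.731 and 0.230, edgeR). The prostate markers KLK2 and KLK3 were at 0 counts in all libraries. Of 11 markers of immune, endothelial and stromal cells, CD3E was at 0 throughout and the summed level was 31.8 to 33.0 CPM in PC3 control and 39.4 to 45.6 CPM in PC3 OE libraries, where COL3A1 went from a mean of 3.84 to 15.05 CPM. In DU145 the same sum was 56.2 to 63.2 CPM in control and 55.6 to 60.6 CPM in OE libraries, nearly all of it CD68. Within it PECAM1 was higher with OE (log2 fold change 1.63, adjusted p = 0.0259, edgeR), on 3 to 7 counts in control and 12 and 26 in OE libraries. Those control counts alone would not have passed the filter on low counts. PECAM1 was thus tested through its OE libraries, which favoured a call higher with OE. Whether these differences have a part in the S100 values was not tested. In bulk RNA, fewer cells expressing a gene and less RNA per cell cannot be told apart.

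In the control libraries, S100A6 was the most abundant of the 10 genes in both lines, and S100P and S100A14 were close to the limit of detection in DU145. Compared per kb of exon, so that genes of different length could be set side by side, the mean level of S100A6 was 1702 ± 49.7 CPM per kb in PC3 and 2037 CPM per kb in DU145 (SD, n = 3 libraries). S100A6 (calcyclin), a widely expressed dimer that binds CACYBP, alone made up 42.1 to 45.1% of the summed CPM of the 10 genes in PC3 control libraries and 42.3 to 43.3% in DU145 control libraries. Next in PC3 came S100A16, a broadly expressed member, at 435 CPM per kb, followed by S100A11 and S100A10 at 289 and 286 CPM per kb, whose ranges over the libraries overlapped. S100A13 followed at 121 CPM per kb, S100A2 at 25.1, S100A4 at 17.9, and S100A3 and S100P, which overlapped, at 3.65 and 2.64. S100A14 was lowest at 1.22 CPM per kb. DU145 kept S100A6 first but placed S100A11 and S100A10 next, at 694 and 652 CPM per kb with overlapping ranges, ahead of S100A13 at 264 and S100A16 at 181 CPM per kb. S100A4 and S100A2 overlapped at 15.4 and 12.8 CPM per kb, S100A3 stood at 2.26, and S100A14 and S100P, at 0.349 and 0.0922 CPM per kb, overlapped at the bottom of the order.

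**Figure D1:**
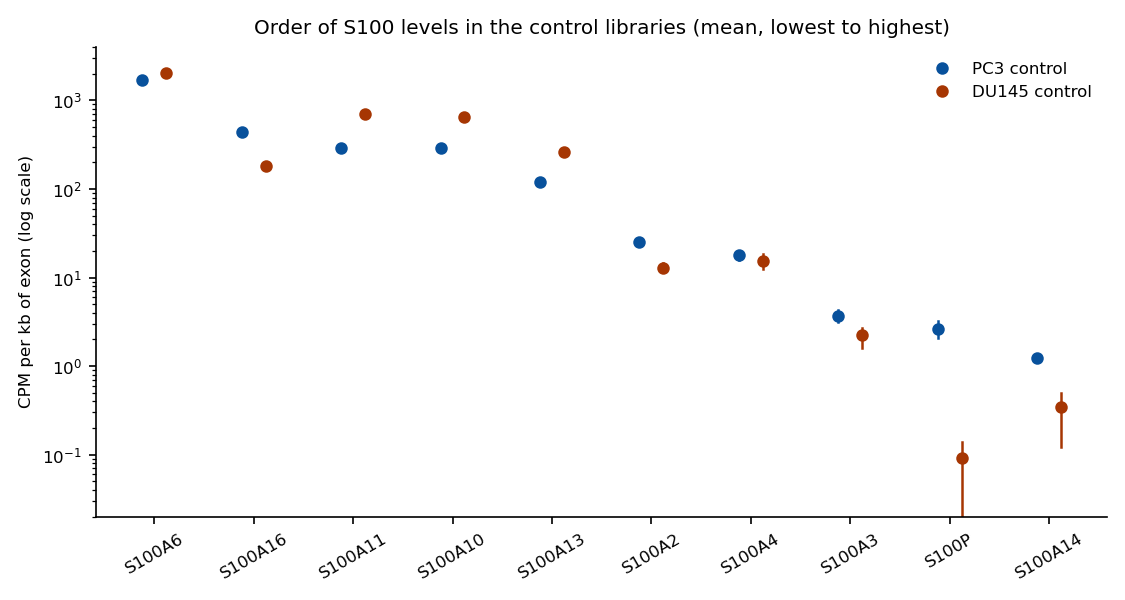
Level of each S100 gene in the control libraries as CPM per kb of exon on a log axis, with the mean as a point and a line from the lowest to the highest of 3 libraries, PC3 in blue and DU145 in orange. S100A6 is highest in both lines, S100A16 falls from 435 to 181 CPM per kb between PC3 and DU145, and the line of S100P in DU145 runs off the axis because 1 library had 0 counts.

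Of the 10 genes, 8 differed between the control lines by a log2 difference of more than 0.58 either way at an adjusted p under 0.05 (edgeR quasi-likelihood test), 3 of them higher in DU145 and 5 lower. Among all 14952 genes tested 64.9% did so (31.7% higher and 33.2% lower), so differences of this kind were common. The lines were counted in separate tables, so line and table cannot be told apart. The genes that stood higher in DU145 were S100A10, which joins annexin A2 in a membrane bound complex, by 1.18 on the log2 scale (SE 0.0486, adjusted p = 1.23e-14, edgeR), S100A11, a partner of annexin A1, by 1.26 (SE 0.0508, adjusted p = 9.19e-15, edgeR), and S100A13, which takes part in the export of FGF1 and IL1A, by 1.12 (SE 0.0638, adjusted p = 2.35e-12, edgeR). Lower in DU145 were S100A2 (log2 difference -0.97), S100A3 (-0.69), S100A16 (-1.27), S100A14 and S100P. The last named, S100A14 and S100P, were under the filter when DU145 was fitted alone and entered this fit through their PC3 counts. A call lower in DU145 was thus favoured by the filter for them, and the count of 8 includes both. The S100A3 call was lost without DU145 control replicate 1 (log2 difference -0.49, adjusted p = 0.0522, edgeR) and without PC3 control replicate 2 (-0.55, under the fold limit). For S100A14 the 3 control libraries held 63 counts in PC3 and 16 in DU145, a ratio of 3.55 after scaling by library size (95% exact interval 2.02 to 6.58). The same libraries held 61 counts of S100P in PC3 and 2 in DU145, a ratio of 27.5 (95% exact interval 7.29 to 232.0). Both intervals cover counting error only. S100A6 was higher in DU145 by only 0.26 on the log2 scale (SE 0.0489, adjusted p = 7.57e-05, edgeR), and S100A4 differed by -0.21 (SE 0.127, adjusted p = 0.129, edgeR), within the spread of the libraries.

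ST6GAL1 overexpression in PC3 went with higher levels of S100A2, S100A14 and S100P, small rises of S100A6, S100A13 and S100A16 and a small fall of S100A10. The 3 first named passed both thresholds, all upwards, against 3.61% of 13544 genes tested that were called higher and 5.38% called in either direction. With the adjusted p alone, 7 of the 10 passed (6 higher and 1 lower), against 37.3% of all genes tested (18.8% higher and 18.5% lower). The same 7 had groups that did not overlap, which 46.2% of all genes tested showed. The median log2 fold change of the 10 genes was 0.15 (range -0.14 to 1.58), and that of all genes -0.0016.

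S100A2, an epithelial member that binds p53 and is found mainly in the nucleus, made the largest move of the 10 genes in PC3. It was at 23.4, 25.0 and 25.2 CPM in the control libraries and 74.3, 72.6 and 72.5 CPM with OE. Every OE library thus stood near 3-fold above every control. The log2 fold change was 1.58 (SE 0.0505, 2.99-fold, adjusted p = 8.22e-27, edgeR), and it stayed between 1.54 and 1.60 with any 1 PC3 library left out. In DU145 the same gene was at 11.47, 14.21 and 11.98 CPM in control and 16.2 and 14.5 CPM in OE libraries. These groups did not overlap, but by a narrow margin, and the log2 fold change of 0.30 (SE 0.134) did not pass (adjusted p = 0.133, edgeR). Leaving out OE replicate 3 gave an adjusted p of 0.0425 there, and the other 4 omissions gave values above 0.05.

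S100A14, an epithelial member, was a low gene in PC3 that also rose. Its counts were 21, 20 and 22 in the control and 41, 45 and 55 in the OE libraries, or 1.18, 1.26 and 1.43 CPM against 2.79, 2.48 and 3.47 CPM. The groups were well apart, at a log2 fold change of 1.17 (SE 0.223, 2.25-fold, adjusted p = 4.71e-05, edgeR). In DU145 it had 8, 2 and 6 counts in control and 11 and 10 in OE libraries and fell under the filter on low counts, so no test was made.

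S100P, which was first isolated from placenta and binds ezrin and IQGAP1, had 22, 24 and 15 counts in PC3 control and 30, 36 and 29 in PC3 OE libraries. As CPM these were 1.24, 1.51 and 0.976 against 2.04, 1.99 and 1.83, so the groups did not overlap. The log2 fold change was 0.65 (SE 0.244, 1.57-fold, adjusted p = 0.0334, edgeR). This call was the least secure of the 3: DESeq2 gave an adjusted p of 0.155, and it was kept only when PC3 control replicate 2 was left out, with values of 0.0575 to 0.147 for the other 5 omissions. In DU145 the counts were 1, 1 and 0 in control and 1 and 3 in OE libraries, at or under the floor of 3, and no fold is given.

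**Figure D2:**
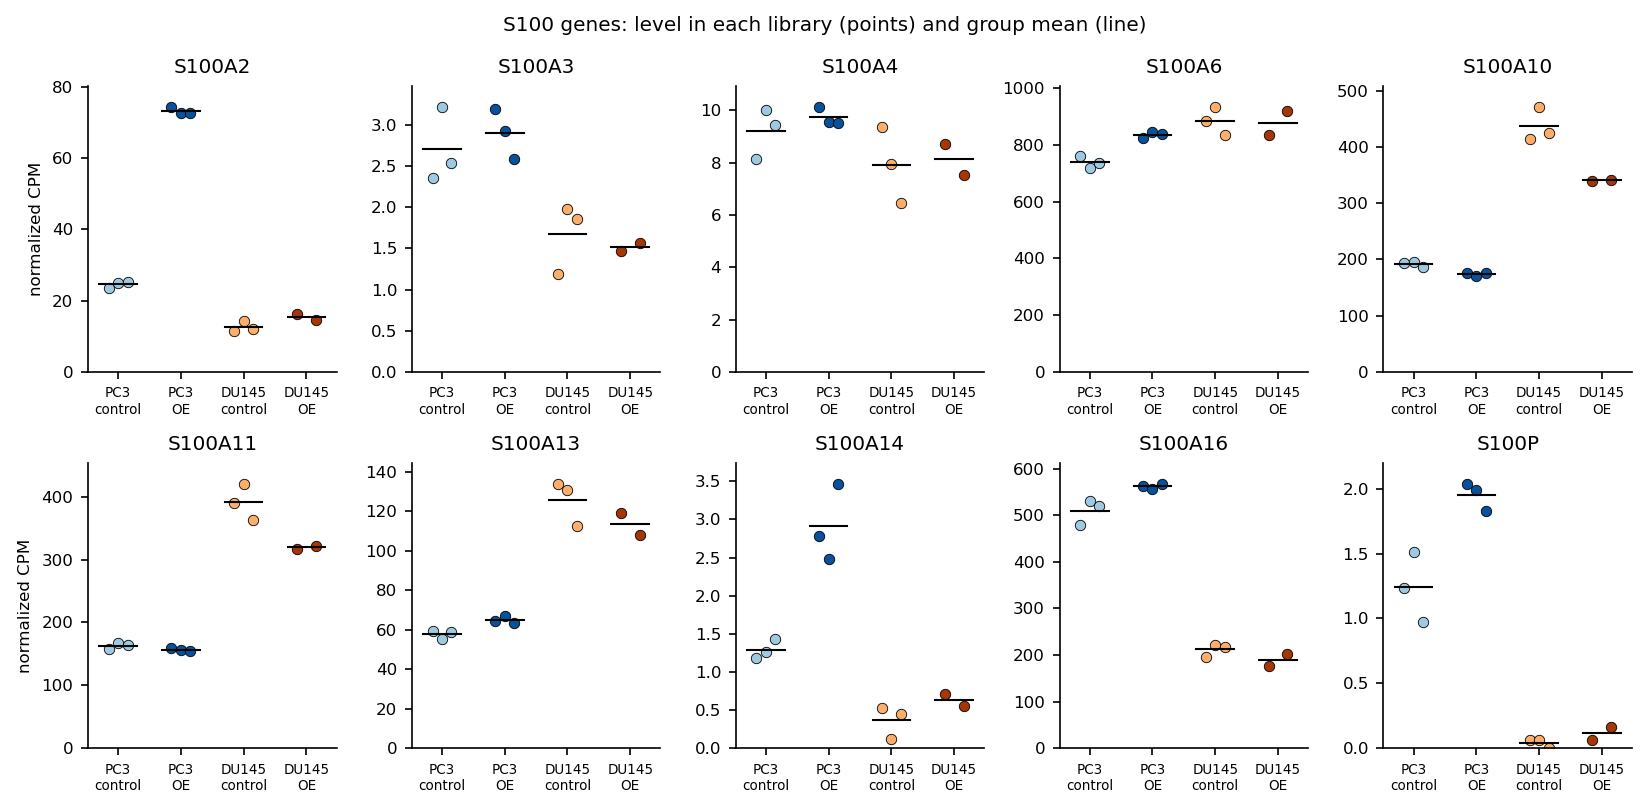
Normalized CPM of each S100 gene in each library (points) with the group mean (line), on linear axes from 0, for the control and OE libraries of PC3 (blue) and DU145 (orange). S100A2 in PC3 moves from a mean of 24.6 to 73.1 CPM, while S100A10 and S100A11 are lower in the DU145 OE libraries than in all 3 DU145 controls.

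These 3 genes are shown with the 250 bases before their start because they rose together in PC3, and S100A6 because it was the most abundant. The sequences are from RefSeq on GRCh38, written 5′ to 3′ on the strand of each gene, with matches to a searched motif in capitals. The S100A2 gene lies at chr1:153561108-153565844 and its window at chr1:153565845-153566094, S100A14 at chr1:153614255-153616325 with its window at chr1:153616326-153616575, and S100A6 at chr1:153534599-153535991 with its window at chr1:153535992-153536241, all on the minus strand. S100P lies on the plus strand of another chromosome, at chr4:6693878-6697170, with its window at chr4:6693628-6693877.
S100A2: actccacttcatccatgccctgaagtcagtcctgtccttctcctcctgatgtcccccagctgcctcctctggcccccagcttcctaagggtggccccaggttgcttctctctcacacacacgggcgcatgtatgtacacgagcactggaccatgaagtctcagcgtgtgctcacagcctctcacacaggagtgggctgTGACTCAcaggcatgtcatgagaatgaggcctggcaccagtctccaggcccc
S100A14: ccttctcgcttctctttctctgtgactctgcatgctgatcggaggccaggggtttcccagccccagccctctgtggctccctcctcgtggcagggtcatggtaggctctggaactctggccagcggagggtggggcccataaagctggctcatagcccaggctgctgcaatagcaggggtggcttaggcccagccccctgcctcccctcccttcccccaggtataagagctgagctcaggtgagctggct
S100P: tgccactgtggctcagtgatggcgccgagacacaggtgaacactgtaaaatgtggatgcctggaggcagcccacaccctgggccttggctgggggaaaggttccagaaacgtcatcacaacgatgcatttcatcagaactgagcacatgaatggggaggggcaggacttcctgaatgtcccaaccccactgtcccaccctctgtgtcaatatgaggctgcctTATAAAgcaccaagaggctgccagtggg
S100A6: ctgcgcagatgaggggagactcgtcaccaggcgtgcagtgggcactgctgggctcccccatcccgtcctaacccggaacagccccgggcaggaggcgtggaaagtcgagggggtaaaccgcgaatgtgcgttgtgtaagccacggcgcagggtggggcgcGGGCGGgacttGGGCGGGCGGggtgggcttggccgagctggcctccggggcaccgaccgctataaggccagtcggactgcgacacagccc
Both strands were searched for a TATA box written as TATAAA. A GC box was searched for as the letters GGGCGG. An AP-1 site was any match to TGANTCA, and the NF-kB motif was searched for as well. Matches of different motifs did not overlap. No window of the 10 genes held the NF-kB motif in the letters searched, which 1.73% of all windows held. Looser forms of that motif were not searched for, so their absence is not shown. The window of S100A2 held 1 AP-1 match, from 52 to 46 bases before the start, a motif found in 6.57% of 35116 windows of the same length. S100P held TATAAA 28 to 23 bases before its start, which 10.7% of all windows held. S100A6 held 3 GC boxes, the last 2 sharing bases, where 42.6% of windows held at least 1. No searched motif was in the window of S100A14 or of S100A16. Members that did not rise in PC3 held the same motifs: S100A3 an AP-1 match 225 to 219 bases before its start, S100A4 a TATA box 31 to 26 bases before its start, and S100A3, S100A10 and S100A11 1 GC box each. S100A13 held a TATA box 29 to 24 bases before its start. The 3 genes called in PC3 shared none of these motifs, which describes only these windows.

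For S100A6, S100A16 and S100A13, the differences in PC3 were small but larger than the spread between libraries. S100A6 was at 762, 719 and 736 CPM in control and 823, 845 and 838 CPM in OE libraries. All OE values lay above all controls, with a log2 fold change of 0.18 (SE 0.0242, adjusted p = 9.51e-08, edgeR). S100A16 was at 478, 531 and 521 CPM in control and 562, 556 and 568 CPM in OE libraries, a log2 fold change of 0.14 (SE 0.0299, adjusted p = 0.000310, edgeR). For S100A13 the values were 59.5, 55.1 and 58.9 CPM against 64.2, 66.8 and 63.4 CPM (log2 fold change 0.17, SE 0.0440, adjusted p = 0.00228, edgeR). An exon of S100A13 overlaps the antisense gene S100A1, but S100A1 itself had at most 3 counts in any library. It also overlaps an unnamed long non-coding RNA on its own strand over 536 bases, which these counts do not separate.

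None of these 3 genes passed in DU145. S100A6 was at 883, 933 and 836 CPM in control and 835 and 919 CPM in OE libraries, fully overlapping. Its log2 fold change was 0.0024 (95% interval -0.16 to 0.16, adjusted p = 0.988, edgeR), and the sign changed with the normalization. S100A16 was at 197, 222 and 218 CPM in control and 176 and 203 CPM in OE libraries, and S100A13 at 134, 131 and 113 CPM against 119 and 108 CPM. Both means were lower with OE but the groups overlapped, at log2 fold changes of -0.15 (SE 0.0839, adjusted p = 0.248, edgeR) and -0.14 (SE 0.0879, adjusted p = 0.312, edgeR). With 1 library left out, S100A16 ran from -0.24 to -0.06, and it passed without DU145 OE replicate 3 (adjusted p = 0.0295, edgeR). S100A13 ran from -0.22 without DU145 OE replicate 2 to -0.06 without OE replicate 3 and did not pass in any of the 5 omissions.

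S100A10 and S100A11, the partners of annexins A2 and A1, were the 2 genes that passed the adjusted p in DU145, both lower with OE, against 9.42% of 13676 genes tested that were lower and 20.1% in either direction. No gene of the 10 passed the fold limit as well, where 8.94% of all genes tested did, and 2 of the 10 (S100A14 and S100P) had been left out by the filter. Groups did not overlap for 3 of the 8 tested (1 higher and 2 lower), against 48.3% of all genes. The median log2 fold change of the 8 was -0.13, and that of all genes -0.0016. The biological coefficient of variation was 0.0817 in DU145 and 0.0226 in PC3, so a change of the same size was less likely to pass in DU145.

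S100A10 (p11), which does not bind calcium and forms a tetramer with annexin A2 that also binds tissue plasminogen activator, was at 415, 471 and 425 CPM in DU145 control and 340.4 and 341.5 CPM in DU145 OE libraries. The OE libraries were close together and below every control (log2 fold change -0.34, SE 0.0784, adjusted p = 0.00660, edgeR). In PC3 it was at 194, 196 and 187 CPM in control and 176, 171 and 176 CPM in OE libraries, again without overlap (log2 fold change -0.14, SE 0.0306, adjusted p = 0.000261, edgeR). It was the only one of the 10 genes below the adjusted p threshold in the same direction in both lines. S100A11 was at 389, 421 and 362 CPM in DU145 control and 317 and 322 CPM in OE libraries (log2 fold change -0.28, SE 0.0788, adjusted p = 0.0243, edgeR). The epithelial markers KRT8, KRT18, KRT19 and EPCAM were also lower in the same DU145 OE libraries, and their part in these falls was not tested. KRT8 was lower in the PC3 OE libraries too, where KRT19 and CDH1 were higher, and any part in the fall of S100A10 there was not tested. Without DU145 control replicate 1 or 2 the adjusted p of S100A11 became 0.0832 or 0.0983. In PC3 it was at 158, 168 and 163 CPM against 159, 156 and 155 CPM, which overlapped (log2 fold change -0.05, SE 0.0325, adjusted p = 0.200, edgeR), and the adjusted p was 0.0423 without PC3 control replicate 1.

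S100A4 and S100A3 did not pass in either line. S100A4 (metastasin), which binds non-muscle myosin IIA and is known for its link to metastasis, was at 8.15, 10.03 and 9.43 CPM in PC3 control and 10.1, 9.54 and 9.52 CPM in PC3 OE libraries. In DU145 it was at 9.35, 7.93 and 6.47 CPM against 8.72 and 7.53 CPM. The groups overlapped in both lines, and the log2 fold changes were 0.08 (95% interval -0.11 to 0.28, adjusted p = 0.556, edgeR) and 0.04 (95% interval -0.29 to 0.38, adjusted p = 0.884, edgeR), with a sign that changed on leaving out 1 library. S100A3, a cysteine rich member best known from the hair cuticle, had 39 to 51 counts in PC3 control and 41 to 53 in PC3 OE libraries, and 18 to 31 against 23 and 28 counts in DU145. Its log2 fold changes of 0.10 (SE 0.189, adjusted p = 0.710, edgeR) and -0.13 (SE 0.297, adjusted p = 0.807, edgeR) were well within the spread.

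**Figure D3:**
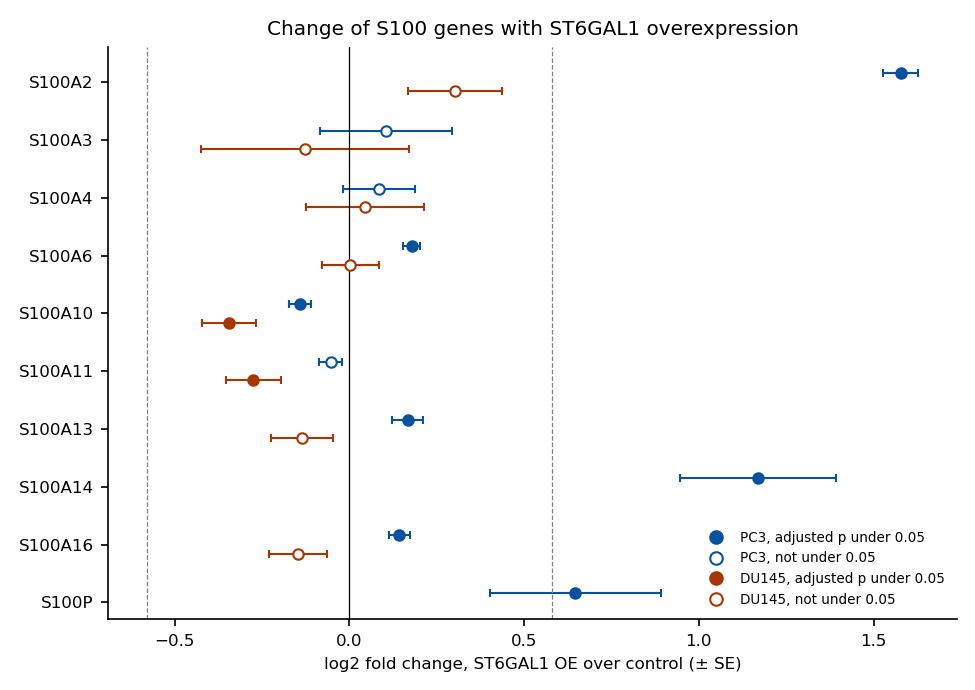
Log2 fold change (OE over control) of the S100 genes with its standard error in PC3 (blue) and DU145 (orange), filled where the adjusted p was under 0.05, with dashed lines at 0.58 either way. S100A2, S100A14 and S100P lie beyond the limit in PC3, S100A10 and S100A11 are the filled points in DU145, and S100A14 and S100P have no point in DU145.

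The difference between the lines was tested itself, as the change in DU145 minus the change in PC3 over all 11 libraries. It passed for 5 of the 10 genes, each time lower in DU145, against 9.36% of 14952 genes tested that were lower and 19.7% in either direction. S100A2 had the largest of these differences, -1.28 on the log2 scale (SE 0.122, adjusted p = 2.89e-07, edgeR), and stayed between -1.38 and -1.19 whichever library was left out. The others were S100A10 (-0.21, adjusted p = 0.0490, edgeR), S100A11 (-0.23, adjusted p = 0.0412, edgeR), S100A13 (-0.31, adjusted p = 0.0269, edgeR) and S100A16 (-0.29, adjusted p = 0.0244, edgeR). Those 4 lay near the threshold and were lost on leaving out single libraries, in 7, 7, 4 and 6 of 11 omissions. The fit shared its estimate of the spread over both lines (biological coefficient of variation 0.0543, beside 0.0817 in DU145 and 0.0226 in PC3). The SE of the difference for S100A2, S100A10 and S100A11 (0.122, 0.0724 and 0.0755) was below that of their DU145 changes (0.134, 0.0784 and 0.0788). The same held for S100A6 (0.0733 and 0.0816). The p-values of these genes here may thus be too small. The median difference of the 10 genes was -0.23, beside -0.01 for all genes. S100A6 did not pass (-0.18, SE 0.0733, adjusted p = 0.0894, edgeR), nor did S100A3 and S100A4. For S100A14 and S100P the test could not decide (SE 0.567 and 0.942). They were under the filter when DU145 was fitted alone and entered this fit through their PC3 counts. Both still count among the 10 and in the median.

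Summed over the 10 genes, the level was 1700.4 ± 11.6 CPM in PC3 control and 1883 ± 6.25 CPM in PC3 OE libraries (SD, n = 3). In DU145 it was 2073 ± 117 CPM in control (n = 3) and 1867 ± 72.9 CPM in OE libraries (n = 2). The sum was thus higher with OE in PC3 and lower in DU145. In every library most of the summed level was S100A6, S100A16, S100A10 and S100A11, but these did not all move with the sum. In PC3 the means of S100A10 and S100A11 were lower with OE while the sum was higher. No test was made of the sum.

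Of the S100 genes outside the 10, S100A9 was the one called in either line. S100A9, a calprotectin subunit best known from myeloid cells, had 13, 9 and 11 counts in PC3 control and 62, 63 and 54 in PC3 OE libraries. With OE every library was far above the controls (log2 fold change 2.44, SE 0.241, adjusted p = 5.22e-11, edgeR). The control library with 9 counts fell short of the filter, so the gene entered the PC3 fit through its OE libraries. A call higher with OE was thus favoured by the filter there. In DU145 S100A9 had 32, 41 and 15 counts against 69 and 76 (log2 fold change 1.14, SE 0.265, adjusted p = 0.00891, edgeR), a call lost without DU145 control replicate 1 (adjusted p = 0.0576, edgeR). The change was larger in PC3 than in DU145 (log2 difference -1.31, adjusted p = 0.0174, edgeR). Of the leukocyte and myeloid markers, PTPRC was at 0.252 to 0.455 CPM in PC3 control and 0.567 to 0.717 CPM in PC3 OE libraries, which did not overlap, while CD68 (means of 21.1 and 20.3 CPM), CD14 (0.129 and 0.184 CPM) and LYZ (0.0398 and 0.0663 CPM) overlapped between the PC3 groups. In DU145, CD14 went from a mean of 1.70 to 2.62 CPM without overlap (adjusted p = 0.104, edgeR), and the groups overlapped for the other 3. Their part in the S100A9 values was not tested. S100A8, the other calprotectin subunit, had at most 1 count in any library. S100A7, S100A7A, S100A7L2 and S100B were at 0 counts throughout, S100A1, S100A12, S100G and S100Z were under the filter in both lines, and S100A5 in DU145 alone (PC3 log2 fold change -0.58, SE 0.368, adjusted p = 0.227, edgeR).

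The annexins, calcium dependent membrane binding proteins of which several are S100 partners, were mostly lower with OE in PC3. Of 9 tested there, 1 was higher and 6 were lower by the adjusted p (median log2 fold change -0.08), where 18.8% of all genes tested were higher and 18.5% lower. Of 10 tested in DU145, 2 were higher and 2 lower (median 0.06), where 20.1% of all genes tested passed in either direction and 9.42% were lower. ANXA2, the partner of S100A10, was at 1901, 1851 and 1885 CPM in PC3 control and 1502, 1481 and 1472 CPM in PC3 OE libraries. It was lower in every OE library (log2 fold change -0.34, adjusted p = 4.75e-16, edgeR), whereas in DU145 the groups overlapped (0.06, adjusted p = 0.769, edgeR). ANXA1, the partner of S100A11, fell in PC3 from 167, 161 and 164 to 136, 140 and 134 CPM (log2 fold change -0.26, adjusted p = 1.01e-08, edgeR). In DU145 it rose, from 431, 438 and 371 to 557 and 498 CPM (0.37, adjusted p = 0.00893, edgeR). S100A11 thus moved down in DU145 where its partner moved up, while S100A10 and ANXA2 were both lower in PC3. Past the fold limit were ANXA10 in PC3 (log2 fold change 0.96, adjusted p = 3.93e-12, edgeR) and ANXA8 in DU145 (0.73, adjusted p = 0.0403, edgeR). ANXA8 has a near-identical copy, so its counts are uncertain, and its call was lost with DESeq2 (adjusted p = 0.189), with library size alone (adjusted p = 0.0599, edgeR), and without DU145 control replicate 2 or 3 or OE replicate 3 (adjusted p = 0.216, 0.148 and 0.133, edgeR).

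Of 16 genes for other binding partners, cargo and receptors, 14 were tested in PC3, where 1 was higher and 9 lower by the adjusted p, beside 18.8% and 18.5% of all genes tested. In DU145, 12 were tested, and 1 was lower, beside 9.42% of all genes tested. CACYBP, which binds S100A6, and MYH9, the heavy chain bound by S100A4, were slightly lower in PC3 (log2 fold changes -0.14 and -0.19, adjusted p = 0.0106 and 1.03e-08, edgeR) but did not pass in DU145 (-0.15 and 0.22, adjusted p = 0.260 and 0.296, edgeR). Of the S100P partners, EZR passed in PC3 (-0.09, adjusted p = 0.0108, edgeR) and IQGAP1 did not (-0.05, adjusted p = 0.163, edgeR), and neither passed in DU145 (adjusted p = 0.186 and 0.125). FGF1, the cargo exported with S100A13, had 52, 38 and 44 counts in PC3 control and 33, 26 and 25 in PC3 OE libraries (log2 fold change -0.66, adjusted p = 0.0136, edgeR). This call was lost with DESeq2 (adjusted p = 0.0874) and without PC3 control replicate 1 or OE replicate 2 or 3 (adjusted p = 0.0525, 0.0984 and 0.0616, edgeR). IL1A was under the filter in both lines.

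The genes of the plasminogen activators, enzymes to which S100A10 is linked, had the lowest log2 fold change of these lists in each line, PLAU in PC3 and PLAT in DU145. PLAU, the urokinase gene, went from 1057, 1057 and 1059 CPM to 628, 643 and 640 CPM in PC3 (log2 fold change -0.73, adjusted p = 8.22e-27, edgeR), and in DU145 from 338, 325 and 316 to 289 and 286 CPM (-0.17, adjusted p = 0.123, edgeR). PLAT, the tissue plasminogen activator gene, was abundant in PC3 at 1448 to 1489 CPM in control libraries and did not pass there (0.02, adjusted p = 0.428, edgeR). DU145 had only 39, 46 and 40 counts of it in control and 15 and 9 in OE libraries (-1.95, adjusted p = 0.000578, edgeR). Among receptors, AGER, the gene of RAGE, had 0 counts in all 11 libraries. TLR4 was at 24.3, 25.2 and 24.6 CPM in PC3 control and 15.9, 14.6 and 16.5 CPM in PC3 OE libraries (log2 fold change -0.66, adjusted p = 7.10e-10, edgeR) and at 0 counts in all DU145 libraries. Over the 39 genes of these lists, 5 were called in PC3 and 3 in DU145, of 25 and 23 tested, where 5.38% and 8.94% of all genes tested were called, and the median log2 fold changes were -0.14 and 0.06.

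**Figure D4:**
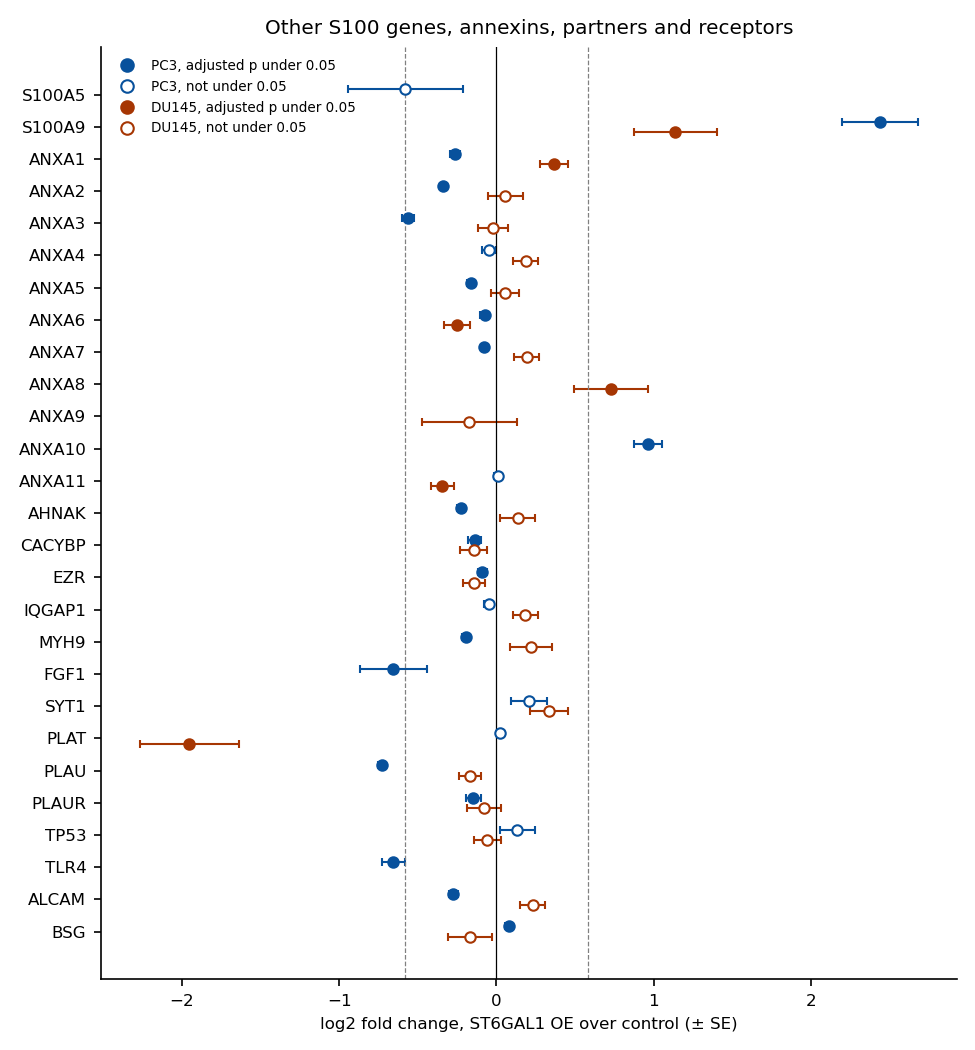
Log2 fold change (OE over control) with its standard error for the tested S100 genes outside the 10, annexins, binding partners, cargo and receptors in PC3 (blue) and DU145 (orange), filled where the adjusted p was under 0.05, with dashed lines at 0.58 either way. S100A9 lies to the right in both lines, ANXA1 is on opposite sides of 0, and PLAT in DU145 lies farthest to the left at -1.95.

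By position, 9 of the 10 genes lie on chromosome 1 in GRCh38, from S100A10 at chr1:151982915-151993859 to S100A13 at chr1:153618799-153634361, all on the minus strand. Of the 60 other genes between them, only 4 were tested in each line, and not all were the same in both. Their log2 fold changes ran from -0.58 to 2.44 in PC3 (median 0.08) and from -0.23 to 1.14 in DU145 (median 0.32). S100A9 was the highest of them in both lines. Neighbouring members did not move alike in PC3, since S100A2 (1.58) and S100A14 (1.17) lie within the same stretch as S100A3 (0.10), S100A4 (0.08) and S100A6 (0.18). Around S100P, the genes within 5 Mb had a median log2 fold change of 0.02 in PC3, where 30 of 58 tested were higher and 28 lower. In DU145 the same stretch had a median of 0.41, with 50 of 59 tested genes higher, while S100P itself was too low to test there.

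**Figure D5:**
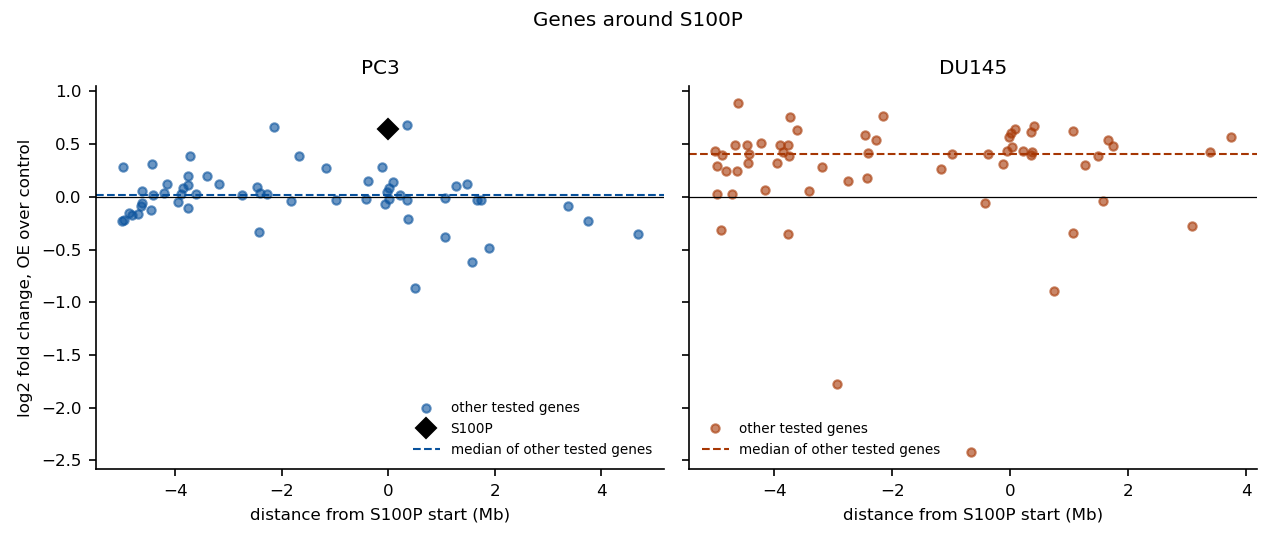
Log2 fold change (OE over control) of the tested genes against their distance from the start of S100P in Mb, for PC3 (left) and DU145 (right), with the median of the other genes as a dashed line and S100P as a black diamond where it was tested. The dashed line is at 0.02 in PC3 and 0.41 in DU145.

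For the 3 genes called in PC3, the genes with the most similar pattern over the 11 libraries were ranked by Pearson's r of log CPM, among those with a mean of at least 10 CPM. For S100A2 these were NDFIP1 (r = 0.988) and COBLL1 (r = 0.984), for S100A14 HIVEP2 (r = 0.975) and TBC1D8B (r = 0.969), and for S100P TRIM52 (r = 0.996) and SMPD1 (r = 0.995). The libraries fall into 2 lines, which sets much of each pattern, so these values describe the profiles and carry no test.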

How the data were processed

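RNA-Seq was carried out on 11 libraries of PC3 and DU145 cells prepared with a stranded mRNA kit. The authors worked in Galaxy, with Cutadapt for trimming, HISAT2 for mapping (hg38) and featureCounts for counting, and deposited raw counts per Entrez gene in 1 table per line. The submitters' processing notes also list FastQC and limma. The annotation and strand setting of the counting are not given in the sources used here. RefSeq symbols matched 97.7% of identifiers.

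From the counts, each line was fitted alone with edgeR 4.0.16 (R 4.3.3): filterByExpr at its defaults, TMM factors, the robust quasi-likelihood test and Benjamini-Hochberg adjustment over all genes tested. All 11 libraries were fitted together for the difference of the changes and for the control lines. A call needed a log2 difference of more than 0.58 either way at an adjusted p under 0.05. Standard errors come from the log2 difference and the F statistic, and 95% intervals from them. Levels per kb divide CPM by the exon length of the canonical GENCODE transcript, which may differ from the length counted. Scripts were tested on simulated data, and no libraries of a group agreed within sampling noise.

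The 10 genes and all lists were chosen with earlier results of these data known. Named were the 10 genes in full, every listed gene called in either line, the fixed binding partners, AGER, genes at 0 or under the filter, ST6GAL1, and for each called S100 gene the 2 genes most like it. BSG, SYT1 and other list members are shown only as counts and points. Alternatives were limma-voom (limma 3.58.1), DESeq2 1.42.0, RLE factors, library size alone, no filter, at least 10 counts in every library, no fold limit, the replicate number as a block, and each library left out in turn. Protein sequences were not analysed here.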

Additional observations from a re-analysis of the deposited data

Results flagged for a closer look

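These results drew attention because the change with ST6GAL1 OE differed between the lines by edgeR's interaction test over all 11 libraries. Values are the log2 change in DU145 minus that in PC3. Among the 10 S100 genes they were -1.28 for S100A2, -0.21 for S100A10, -0.23 for S100A11, -0.31 for S100A13 and -0.29 for S100A16. S100A2 was higher in PC3 alone by the test within each line. S100A13 and S100A16 rose in PC3 and had lower means in DU145 that did not pass there.

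In the other lists the difference was -1.31 for S100A9, which rose in both lines, and 0.62 for ANXA1, which fell in PC3 and rose in DU145. It was 0.39 for ANXA2, 0.56 for PLAU and 0.23 for IQGAP1. In all, 11 of 28 tested genes of these lists passed, where 19.7% of all genes tested did. The other 5, outside the rule for named genes and listed after their values were seen, were ANXA3 (0.53), ALCAM (0.50), AHNAK (0.36), ANXA7 (0.26) and ANXA11 (-0.36). PLAT gave -1.99 and fell in DU145, where it had at most 46 counts in a library.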

How the results depend on the processing

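Without the fold limit, 7 S100 genes passed in PC3 and 2 in DU145, and 18 and 6 genes of the other lists. The change differed between the lines for 3 S100 genes with DESeq2 and for 1 with a fold limit of 0.58, and with 1 library left out the count ran from 1 to 6, in place of 5. Leaving out 1 library gave 2 to 3 S100 calls in PC3, 0 in DU145 and 7 to 8 between the control lines.

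Signs turned only where values were near 0 or counts low. For S100A6 in DU145 the log2 fold change was -0.0036 with DESeq2 and with RLE factors, -0.027 with library size alone, -0.0092 with no filter, and -0.060 to 0.055 with 1 library left out. For S100A4 it ran from -0.0059 to 0.15 in PC3 and from -0.085 to 0.17 in DU145 on leaving out 1 library, and its difference between the lines from -0.17 to 0.078. For S100P that difference ran from -0.21 to 1.07. The cause was not tested.

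Replicate numbers are shared by the groups but did not pair the libraries by the rule used: deviations of same-numbered PC3 libraries correlated at 0.047, 0.070 and 0.074, although each correlated best with its own number, and DU145 had only 2 such pairs (0.18 and 0.48). With the replicate block the counts of S100 calls were 3 in PC3, 0 in DU145 and 8 between the control lines, 5 S100 genes differed between the lines, and the block turned only the difference of S100A4 (0.10). The calls of S100A14 and S100A9 in PC3 rest on at most 63 counts per library. S100A14 and S100P could not be tested in DU145, so an absence of change there is not shown. With at least 10 counts in every library, the differences of S100A14 and S100P between the lines, S100A9 in PC3 and PLAT in DU145 gave no value.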
